A study of Mus musculus with 23 samples.

Results

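The comparison described here is between blood vessel endothelial cells sorted from mammary tumours after 21 days of nintedanib and the same cell type sorted from untreated tumours. It rests on 8 of the 23 arrays of the study, 5 from long-term treated and 3 from untreated tumours, chosen by their array titles. The tumours were grown from Py2T, a single murine breast cancer cell line, in the mammary fat pad of female FVB/N mice. Nintedanib, a small molecule inhibitor of the VEGF, FGF and PDGF receptor kinases, was given at 50 mg per kg body weight once tumours were measurable. The other arrays held endothelial cells after 7 days of treatment (3 arrays) and tumour cells from untreated (3), 7-day (4) and 21-day (5) tumours. Controls were taken at the size of the 21-day tumours, and the labels do not give the age of either. The labels call the arrays of a group biological replicates but tie no array to an animal, so p-values measure only the spread between these arrays. The series title names metabolic symbiosis and the overcoming of resistance to anti-angiogenic therapy as the subject, and the 21-day cells are the vessel fraction of tumours that had been under treatment longest.

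Endothelial cells line blood vessels. In a tumour they sprout in response to VEGF, which signals through VEGFR2 (Kdr) on their surface, and Notch signalling sorts them into leading tip cells and trailing cells and helps to set arterial identity. Endothelial cells draw much of their energy from glycolysis, and like other cells they induce glycolytic and survival genes through the HIF transcription factors when oxygen falls. Endothelial cells also release PDGF-B, which draws in the pericytes that wrap the vessel wall.

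Values are log2 signals of 1 transcript cluster per gene, so a difference of 1 is a doubling. A difference is the mean of the long-term arrays minus the mean of the untreated arrays, with the standard error of the limma fit. In bulk RNA from sorted cells, fewer cells of a type and less RNA per cell cannot be told apart. All 8 arrays held high levels of the defining endothelial genes. Pecam1 lay between 11.12 and 11.68 in untreated and between 11.17 and 11.63 in long-term arrays, and Cdh5 (VE-cadherin) between 11.87 and 12.27 and between 11.60 and 12.18. The mean of 16 blood vessel endothelial markers was 9.94, 10.47 and 10.46 in the untreated arrays and 10.13 to 10.42 in the long-term arrays. The lower values belonged to the arrays that also held most macrophage signal. The mean of 22 macrophage markers was 7.51 in untreated replicate 1 against 5.57 and 5.69 in the other untreated arrays. It was 7.55 and 6.75 in long-term replicates 3 and 4 against 5.08 to 6.09 in the other long-term arrays. Of these 22 markers 10 were higher after long-term treatment, with a median difference of -0.01. The mean of 15 epithelial markers was 4.97 to 5.50 in untreated and 4.95 to 6.56 in long-term arrays, with 10 higher, a median difference of 0.20 and the highest value in long-term replicate 4. The 13 fibroblast markers (7 higher) averaged 5.83 to 6.30 and 5.63 to 6.72, and the 13 pericyte and smooth muscle markers (9 higher) 5.78 to 6.27 and 5.87 to 6.11. Arrays within the untreated group correlated at 0.959 to 0.973 across genes and those within the long-term group at 0.957 to 0.980. The residual SD within groups had a median over genes of 0.255 log2 units for endothelial and 0.156 for tumour cell arrays.

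No gene passed an adjusted p of 0.05 by limma among 19938 (0%), so no gene is described as changed in this fit. An unadjusted limma p under 0.05 was reached by 833 genes (4.18%), 515 higher (2.58%) and 318 lower (1.59%) after long-term treatment. The smallest adjusted p was 0.131, shared by Tgm2, Ccn4, Dnase1l3 and the predicted gene 5031439G07Rik. With the spread estimated over all 23 arrays, tumour cells included, 34 genes passed (0.171%), 26 higher (0.13%) and 8 lower (0.0401%). The difference is the same in both fits and only its error is not, and adjusted p-values of that second fit are marked below as coming from 23 arrays. That fit pools in tumour cell arrays, which varied less (median residual SD 0.156 against 0.255 for endothelial arrays). Its error can thus be too small for a gene that varies among endothelial arrays, so its p-values are not an equal alternative. Without the 3 arrays highest in macrophage markers, no gene passed either, 726 reached an unadjusted p under 0.05 and 384 of them were lower. Groups without overlap, with every long-term array above or below every untreated array, were found for 427 genes on the higher side (2.14%) and 272 on the lower side (1.36%). Over all genes 53.2% of the differences were positive, with a median of 0.01.

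**Figure D1:**
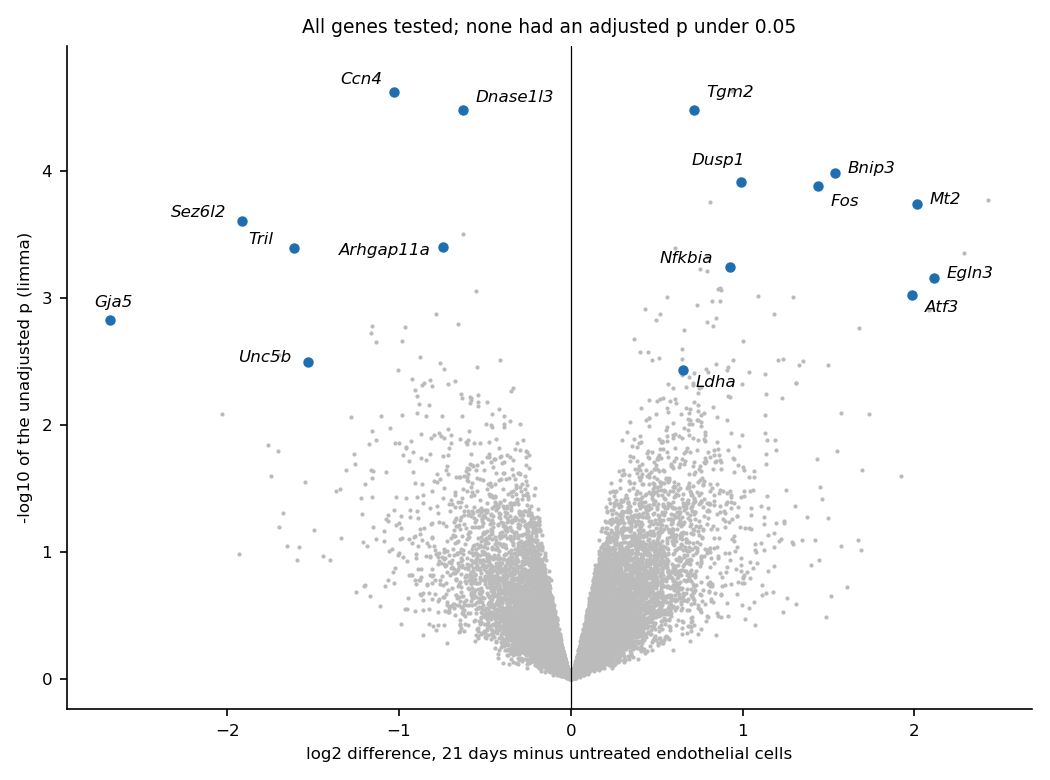
Long-term minus untreated difference (log2, x axis) against the unadjusted limma p (minus log10, y axis) for 19938 genes in endothelial cells, with 16 genes named. No gene passed the adjusted threshold, and 833 had an unadjusted p under 0.05.

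Among hypoxia-induced genes, Bnip3, Egln3 and Ero1a were higher in every long-term than in every untreated array. Bnip3, a mitochondrial protein that promotes mitophagy and is a known HIF target, was at 5.51, 5.01 and 5.75 in untreated and at 6.45, 7.13, 6.78, 7.46 and 6.98 in long-term arrays. The groups did not overlap, and the lowest long-term array stood above the highest untreated one. The difference was 1.54 ± 0.25 (2.9-fold), with a limma adjusted p of 0.324, or 0.0196 with 23 arrays. Without the 3 arrays high in macrophage markers the Bnip3 difference was 1.48, and with the epithelial marker mean as a covariate it was 1.42. Egln3, a prolyl hydroxylase that marks HIF for degradation and is itself a HIF target, was at 4.60, 4.21 and 5.05 in untreated arrays. In long-term arrays Egln3 was at 6.19, 6.99, 6.04, 7.76 and 6.70, a difference of 2.12 ± 0.44 (4.33-fold) with a limma adjusted p of 0.635, or 0.0337 with 23 arrays. Every long-term array again lay above every untreated one. Ero1a, an oxidase of the endoplasmic reticulum that supports disulphide formation, was at 6.92, 6.91 and 6.97 in untreated and 7.46, 8.08, 7.80, 8.10 and 7.56 in long-term arrays. Its difference was 0.87 ± 0.19, with a limma adjusted p of 0.659. Long-term replicate 4, the array highest in epithelial markers, was also the highest of its group for Bnip3, Egln3 and Ero1a. With the epithelial marker mean as a covariate the differences of Egln3 and Ero1a were 1.95 and 0.75, and the part of epithelial RNA in them was not tested further.

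The hypoxia list as a whole was less uniform than these 3 genes. Of 34 measured members 22 were higher and 12 lower after long-term treatment, a share of positive differences to be read against the 53.2% over all genes, and the median was 0.18 against 0.01. Groups without overlap were found for 5 members on the higher side and 1 on the lower side, against 2.14% and 1.36% of all genes. An unadjusted p under 0.05 was reached by 4 and 2, against 2.58% and 1.59% of all genes. The per-array mean of the list was 6.72 to 6.88 in untreated and 6.91 to 7.27 in long-term arrays, which did not overlap. Other members had a smaller difference or a wider spread. Vegfa, the main VEGF receptor ligand, had a difference of 1.06 ± 0.65. Its 2 highest long-term values, 8.53 and 8.81, and its highest untreated value, 8.24, came from the 3 arrays high in macrophage markers. Without these 3 arrays the Vegfa difference was 1.23. It was 1.13 with the macrophage and 0.72 with the epithelial marker mean as a covariate. Car9, a carbonic anhydrase on the cell surface, had a difference of 0.39 ± 0.18. Its levels were low and overlapped, at 3.67, 3.60 and 3.29 in untreated and 4.45, 3.72, 3.58, 3.89 and 3.91 in long-term arrays. Ndrg1 and Kdm3a, given here after their values were seen as members with small differences, had 0.18 ± 0.29 and -0.01 ± 0.27. Arnt, the partner subunit of HIF, was lower in long-term arrays, at 7.33 to 7.76 against 7.94 to 8.23 (difference -0.50 ± 0.22, also chosen after its values were seen).

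Glycolysis enzymes lay on the higher side nearly throughout. Of 17 measured members 15 had a positive difference, with a median of 0.35 against 0.01 over all genes, and the list mean was 7.11 to 7.14 in untreated and 7.28 to 7.68 in long-term arrays. Pgk1 (phosphoglycerate kinase) was at 9.68, 9.45 and 9.19 in untreated and at 10.16, 9.96, 10.07, 10.50 and 9.75 in long-term arrays. The difference was 0.65 ± 0.17 (1.57-fold), with a limma adjusted p of 0.943. Ldha, the lactate dehydrogenase subunit that favours conversion of pyruvate to lactate, was at 9.26, 9.77 and 9.58 in untreated and 9.99, 10.37, 9.81, 10.48 and 10.30 in long-term arrays. Neither gene had overlapping groups, although long-term replicate 5 of Pgk1 and replicate 3 of Ldha lay just above the highest untreated array. The Ldha difference was 0.65 ± 0.17 (limma adjusted p = 0.948). Long-term replicate 4 was again the highest of its group for both, and with the epithelial covariate the differences were 0.53 for Pgk1 and 0.62 for Ldha. Aldoa (aldolase) was at 10.75 to 10.82 in untreated and 10.94 to 11.25 in long-term arrays, a difference of 0.32 ± 0.11. Hk2 (hexokinase) and Pfkfb3, which raises the activator of phosphofructokinase, had differences of 0.35 ± 0.19 and 0.49 ± 0.40. For Pfkfb3 the difference was 0.11 without untreated replicate 1 and 0.013 without the 3 arrays high in macrophage markers. In all, 3 members had groups without overlap on the higher side and none on the lower side, and 4 and none had an unadjusted p under 0.05. Over all genes these shares were 2.14% and 2.58% on the higher side.

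Of 10 glucose and lactate transporter genes 8 were higher, with a median of 0.22 and none at an unadjusted p under 0.05. Slc2a1, the glucose transporter GLUT1, was at 8.88, 8.49 and 8.89 in untreated arrays and at 9.19, 10.04, 9.17, 9.43 and 9.90 in long-term arrays. The groups did not overlap, but the spread among treated endothelial arrays was wide and the difference was 0.79 ± 0.44. The lactate transporter genes Slc16a1 (MCT1), which can import lactate, and Slc16a3 (MCT4), which mostly exports it, had differences of 0.40 ± 0.48 and 0.72 ± 0.53. Their 95% intervals ran from -0.66 to 1.46 and from -0.45 to 1.9, so neither direction was resolved. Without the 3 arrays high in macrophage markers the differences were 0.14 and 1.42.

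**Figure D2:**
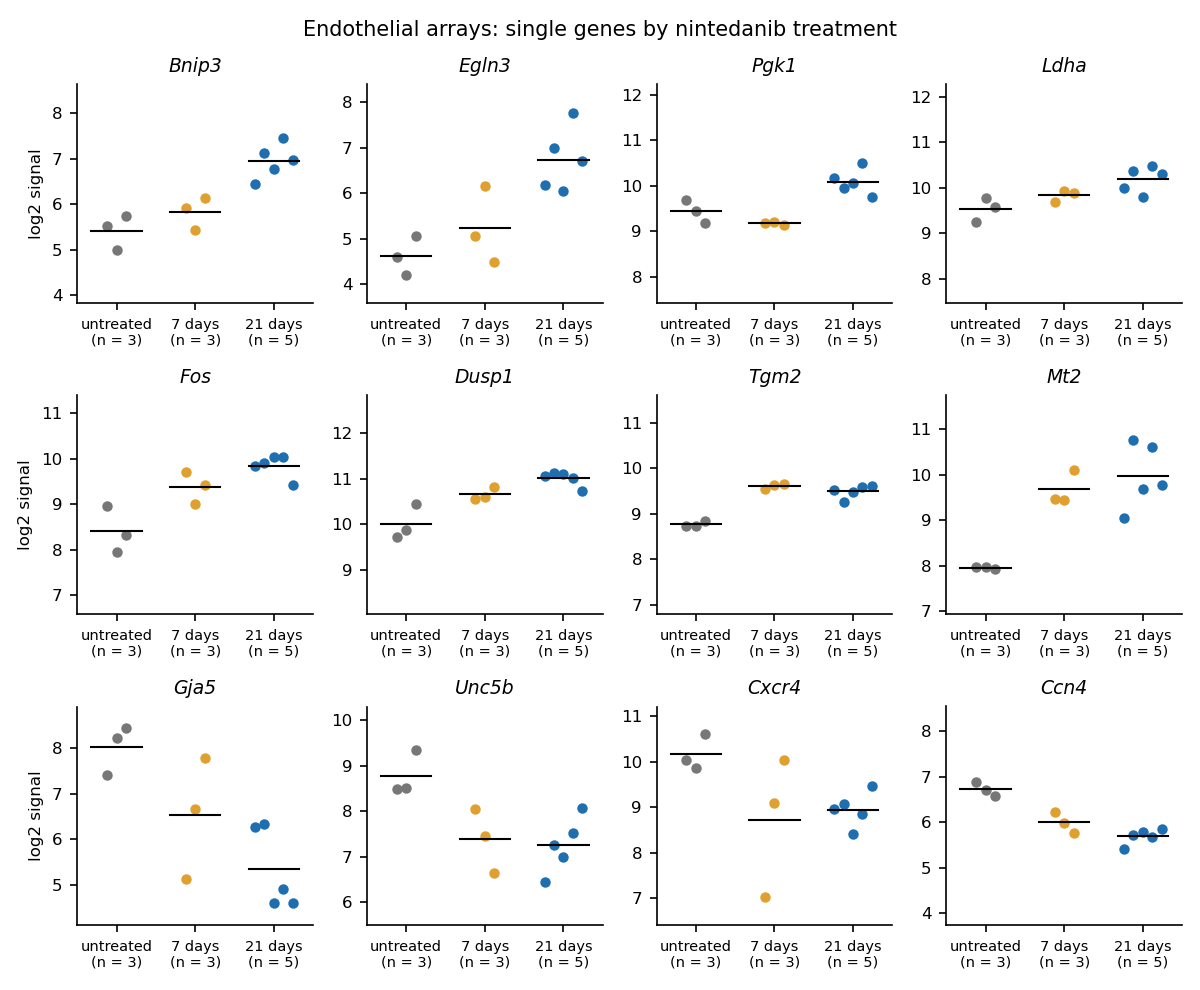
Log2 level of 12 genes on each endothelial array (y axis), by group on the x axis (untreated, 3 arrays; 7 days, 3; 21 days, 5). Each point is an array and the line is the group mean. The 21-day points of Bnip3, Egln3 and Fos all lie above the untreated points, and those of Gja5, Unc5b and Ccn4 all lie below them.

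HIF binds DNA at a short core, so the 250 bases upstream of the RefSeq starts (GRCm38.p6) were searched for ACGTG and GCGTG on both strands. Starts were held for 27 of the 34 measured hypoxia-induced genes and for all 17 glycolysis enzymes. At least 1 core was found at 30 of 37 starts of hypoxia-induced genes (81.1%) and 23 of 29 starts of glycolysis enzymes (79.3%), against 38.6% of all 32851 starts. The median GC content of these windows was 62.4% and 59.2%, against 52.4% over all starts, and both cores hold the dinucleotide CG. These shares describe the lists whatever their differences on the arrays, and genes with several starts weigh more. Bnip3 and the upstream one of the 2 Ldha starts are shown as members whose groups did not overlap, and each window holds 5 matches. The window of the other Ldha start holds 1. Capitals mark the cores on either strand, and adjoining or overlapping matches run together. A match is a description of letters, not of a bound site.
Bnip3, chr7:138909507-138909756, minus strand: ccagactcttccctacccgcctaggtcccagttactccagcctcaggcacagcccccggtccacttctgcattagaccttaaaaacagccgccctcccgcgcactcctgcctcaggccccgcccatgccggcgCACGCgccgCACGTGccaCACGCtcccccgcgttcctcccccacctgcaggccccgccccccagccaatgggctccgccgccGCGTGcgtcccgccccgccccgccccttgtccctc
Ldha, chr7:46845554-46845803, plus strand: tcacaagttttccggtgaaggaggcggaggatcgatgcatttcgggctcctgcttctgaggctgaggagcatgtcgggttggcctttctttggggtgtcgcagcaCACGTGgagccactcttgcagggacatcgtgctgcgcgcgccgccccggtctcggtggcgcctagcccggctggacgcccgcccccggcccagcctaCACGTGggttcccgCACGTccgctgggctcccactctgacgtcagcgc

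Immediate early genes, the transcription factors and feedback regulators that respond to growth factor and stress signals within minutes, had the largest positive median of the 41 functional lists after the 6 PDGF genes. Of 26 measured members 24 were higher after long-term treatment, 13 of them at an unadjusted p under 0.05 and none lower at that threshold. Over all genes 2.58% reached that threshold on the higher side. The median difference was 0.66, and the per-array list mean was 7.79 to 8.01 in untreated against 8.18 to 8.81 in long-term arrays. Fos, a subunit of the AP-1 transcription factor, was at 8.97, 7.95 and 8.33 in untreated and at 9.84, 9.92, 10.04, 10.03 and 9.44 in long-term arrays. The difference was 1.44 ± 0.24 (2.71-fold), with a limma adjusted p of 0.324, or 0.0295 with 23 arrays. Dusp1, a phosphatase that switches off MAP kinases, was at 9.72, 9.88 and 10.44 in untreated and at 11.07, 11.13, 11.09, 11.01 and 10.74 in long-term arrays. The difference was 0.99 ± 0.17 (1.99-fold; limma adjusted p = 0.324, or 0.0356 with 23 arrays), and the long-term arrays were tightly grouped. Zfp36, which promotes decay of inflammatory mRNAs, was at 8.64 to 9.01 in untreated and 9.47 to 9.996 in long-term arrays (0.87 ± 0.19, limma adjusted p = 0.651, or 0.0476 with 23 arrays). Atf3, a stress-induced repressor, had one of the largest differences on the higher side, 1.99 ± 0.43 (3.96-fold), with untreated values of 7.84, 7.19 and 6.56 and long-term values of 8.64 to 10.19. Groups without overlap on the higher side were found for 7 members, against 2.14% of all genes. The arrays high in macrophage markers had the highest list mean within each group, 8.01 in untreated and 8.74 and 8.81 in long-term arrays, and without these 3 arrays the median was 0.60.

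The feedback genes of the ERK pathway, which lies downstream of the receptors that nintedanib inhibits, were not shifted as a list. Of 15 members 8 were higher, with a median of 0.03. An unadjusted limma p under 0.05 was reached by 1 on the higher and 2 on the lower side, against 2.58% and 1.59% of all genes. Ier3, which is also on the immediate early list, was the clearest of them at 1.18 ± 0.27. On the lower side, Dusp5 had a difference of -0.39 ± 0.14, and that of Spred3 ran from -0.98 to -0.45 over all settings.

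Starts were held for 21 of the 26 measured immediate early genes. The short cAMP response element TGACG was found at 16 of 27 of their starts (59.3%) against 17.8% of all starts, and the CArG box, bound by serum response factor, at 5 of 27 (18.5%) against 1.47%. The AP-1 site TGACTCA was found at 0 of 27, against 4.46% of all starts, which says only that these letters are not in the windows. The median GC content was 64.4%. These shares too describe the list whatever its differences on the arrays. Both strands were searched. The windows of Fos, Dusp1 and Zfp36 are shown, the 3 members with the smallest p, with TGACG on either strand in capitals for Fos and Dusp1 and the CArG box in capitals for Zfp36.
Fos, chr12:85473640-85473889, plus strand: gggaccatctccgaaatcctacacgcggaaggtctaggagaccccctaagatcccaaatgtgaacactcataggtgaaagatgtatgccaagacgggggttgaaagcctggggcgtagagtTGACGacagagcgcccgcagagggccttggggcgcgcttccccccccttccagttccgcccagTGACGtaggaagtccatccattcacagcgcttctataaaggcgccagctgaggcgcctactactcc
Dusp1, chr17:26508473-26508722, minus strand: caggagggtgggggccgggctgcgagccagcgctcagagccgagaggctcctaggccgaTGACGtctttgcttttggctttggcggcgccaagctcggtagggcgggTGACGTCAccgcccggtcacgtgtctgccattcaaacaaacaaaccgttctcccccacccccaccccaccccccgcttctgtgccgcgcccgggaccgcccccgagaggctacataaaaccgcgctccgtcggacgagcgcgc
Zfp36, chr7:28379229-28379478, minus strand: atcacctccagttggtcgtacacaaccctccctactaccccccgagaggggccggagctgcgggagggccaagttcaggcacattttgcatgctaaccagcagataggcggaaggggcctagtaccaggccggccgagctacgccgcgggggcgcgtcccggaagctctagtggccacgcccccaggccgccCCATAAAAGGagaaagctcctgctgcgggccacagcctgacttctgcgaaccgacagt

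Genes of the mitotic apparatus lay on the lower side in endothelial cells. Of 33 measured members 30 were lower in long-term than in untreated arrays, with a median of -0.51. An unadjusted p under 0.05 was reached by 10, all lower, against 1.59% of all genes on that side. The list mean was 6.0 to 6.40 in untreated and 5.23 to 6.12 in long-term arrays, so the groups overlapped. The highest long-term means, 6.07 and 6.12, came from replicates 3 and 4, high in macrophage markers. Replicate 4 was also the array highest in epithelial markers. The median was -0.63 with the epithelial and -0.49 with the macrophage marker mean as a covariate, and the part of either cell type was not tested further. Without the 3 arrays high in macrophage markers the long-term range was 5.23 to 5.67, the median was -0.69 and 13 members had an unadjusted p under 0.05. Arhgap11a, a gene of cytokinesis, was at 5.35, 5.39 and 5.33 in untreated and at 4.36, 4.90, 4.61, 4.41 and 4.79 in long-term arrays. The difference was -0.75 ± 0.14, with a limma adjusted p of 0.505. Bub1, a kinase of the spindle checkpoint, was at 4.29, 4.35 and 5.0 in untreated arrays and at 3.49, 3.26, 4.13, 4.21 and 3.42 in long-term arrays (-0.85 ± 0.26). Its 2 highest long-term values also came from replicates 3 and 4, and without the 3 arrays high in macrophage markers the difference was -1.28. Kif11, the spindle motor Eg5, had a difference of -0.54 ± 0.16. Mki67, the proliferation marker Ki-67, taken after its values were seen, was at 7.12 to 7.66 in untreated and 5.70 to 6.91 in long-term arrays (-0.94 ± 0.42). The 3 members with a positive difference were Ndc80 (0.44 ± 0.48), Racgap1 (0.30 ± 0.33) and Aurkb (0.09 ± 0.41), all within their error.

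DNA replication genes did not lie lower with the mitosis genes. Of 34 members 18 were higher, with a median of 0.03. On the higher side 2 had an unadjusted p under 0.05, against 2.58% of all genes. Cdt1, a licensing factor of replication origins, had a difference of 0.74 ± 0.21.

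The same comparison in tumour cells gave mitosis genes on the other side. There 32 of the 33 members were higher after long-term treatment, with a median of 0.42, against 46.8% positive differences over all genes. The difference between the cell types, tested gene by gene in 1 limma fit over 23 arrays, was negative for 32 of 33 members, with a median of -0.83. It reached an unadjusted p under 0.05 in 15 of them, all negative, against 508 of 19938 genes (2.55%) on the negative side. No gene of any kind passed the adjusted threshold for the difference between cell types (0%), while 1063 had an unadjusted limma p under 0.05 (5.33%). For Arhgap11a the tumour difference was 0.44 ± 0.18 and the difference between the cell types -1.19 ± 0.24, with a limma adjusted p of 0.207, the smallest found.

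**Figure D3:**
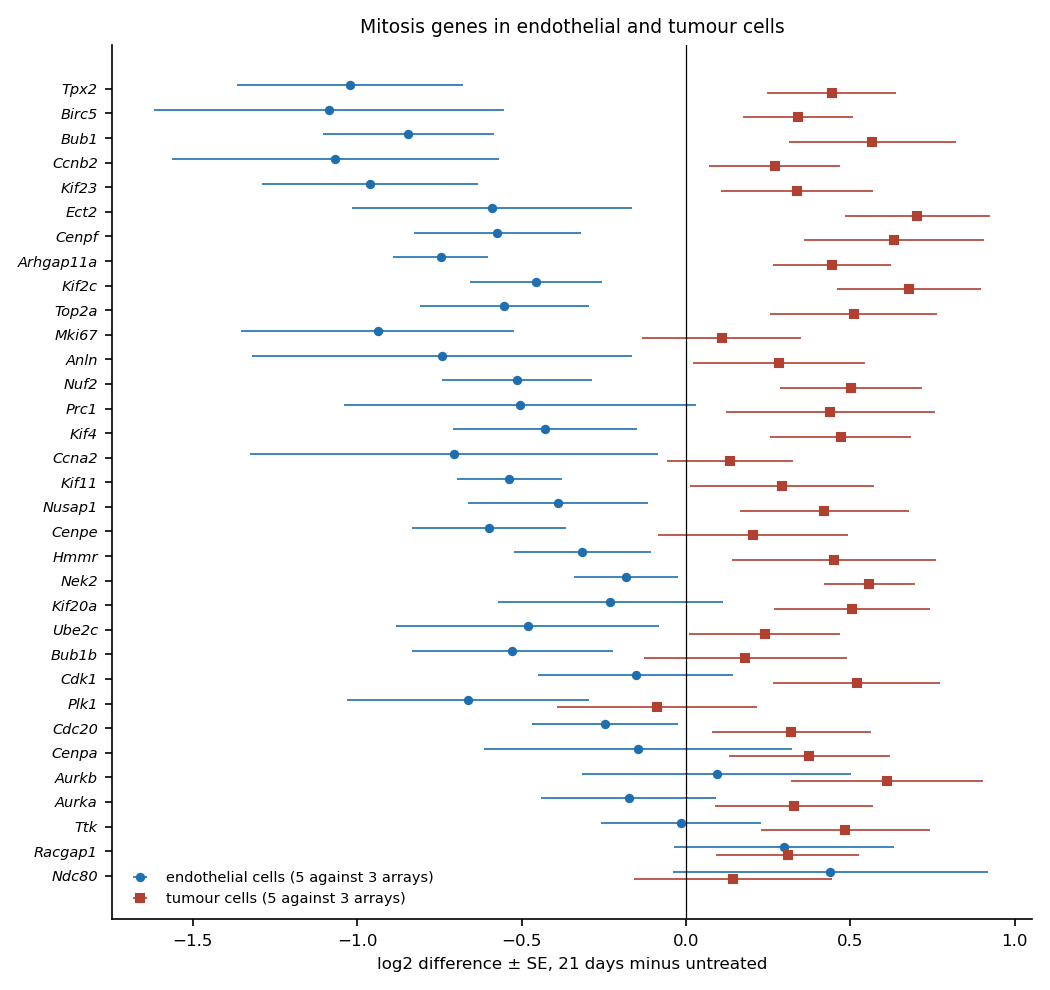
Long-term minus untreated difference (log2, with the standard error of the limma fit) of each of 33 mitosis genes in endothelial cells and in tumour cells. In endothelial cells 30 of the 33 lie below 0, and in tumour cells 32 lie above 0.

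Hypoxia and glycolysis genes were mostly higher in both cell types. Glycolysis enzymes were higher in tumour cells for 13 of 17 members with a median of 0.47, and hypoxia-induced genes for 29 of 34 with a median of 0.30. In tumour cells 18 genes passed the adjusted limma threshold (0.0903%). Bnip3 was among them, at 2.24 ± 0.25 (limma adjusted p = 0.0081) beside 1.54 ± 0.25 in endothelial cells. Aldoa was another, with 0.63 ± 0.09 (limma adjusted p = 0.028) beside 0.32 ± 0.11. The difference between the cell types had an unadjusted p under 0.05 in 3 of 17 glycolysis enzymes and 2 of 34 hypoxia-induced genes, all negative. Aldoa was 1 of these, at -0.30 ± 0.13. Over all genes 2.55% reached that threshold on the negative side. For immediate early genes the tumour median was 0.31, with 23 of 26 higher, and the difference between the cell types had an unadjusted p under 0.05 in 6 members, all positive, against 555 genes (2.78%) on the positive side.

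The targets of nintedanib themselves showed no resolved difference. Kdr (VEGFR2) was at 9.85, 10.29 and 10.56 in untreated and at 10.10, 10.32, 9.98, 9.86 and 10.29 in long-term arrays. The groups overlapped fully, with a difference of -0.12 ± 0.22 and a 95% interval from -0.61 to 0.37. Flt1 (VEGFR1) had a difference of -0.13 ± 0.25 (-0.69 to 0.42) and Flt4 (VEGFR3), best known from lymphatic vessels, 0.04 ± 0.29 (-0.59 to 0.68). These intervals exclude a 2-fold difference in either direction, but not smaller ones. Fgfr1, the FGF receptor best known in endothelium, was at 8.48, 8.13 and 8.08 in untreated and 8.26, 8.72, 8.52, 8.71 and 8.61 in long-term arrays (0.33 ± 0.20, interval -0.11 to 0.77). Fgfr2 and Fgfr3 had differences of 0.38 ± 0.31 and 0.07 ± 0.20, and the first was 0.10 without long-term replicate 4. The PDGF receptor genes, used as markers of pericytes and fibroblasts, had 0.07 ± 0.33 (Pdgfrb) and 0.83 ± 0.67 (Pdgfra). Both were higher in the tumour cell arrays, with untreated and long-term means of 9.58 and 9.89 for Pdgfra and 8.57 and 8.06 for Pdgfrb. In endothelial arrays these means were 6.23 and 7.05 for Pdgfra and 6.28 and 6.35 for Pdgfrb. With the epithelial marker mean as a covariate the Pdgfra difference was 0.49. For Pdgfrb the difference was -0.47 without the 3 arrays high in macrophage markers, of which long-term replicate 3 held the highest long-term value, and the sign of Flt4 turned as well, at -0.08. Pdgfra was at 7.30 in untreated replicate 1 and 8.34 and 7.38 in long-term replicates 3 and 4, against 5.72 and 5.66 in the other untreated and 5.03, 7.86 and 6.66 in the other long-term arrays. The part of other cell types in these values was not tested.

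Of the PDGF ligand genes, Pdgfa and Pdgfb were on the higher side and Pdgfd on the lower. Pdgfa was at 6.80, 6.56 and 6.34 in untreated and at 7.29, 7.61, 7.05, 7.85 and 7.01 in long-term arrays, without overlap (0.80 ± 0.21, limma adjusted p = 0.954). Pdgfb, the chain that recruits pericytes, was at 7.46, 7.98 and 8.51 in untreated and at 8.65, 9.37, 8.61, 9.28 and 8.66 in long-term arrays. Its groups did not overlap either, with a difference of 0.93 ± 0.30. Pdgfd, another PDGF ligand, was at 5.50, 5.78 and 7.11 in untreated and 4.70 to 5.64 in long-term arrays, which overlapped (-0.88 ± 0.59). Its difference was -1.37 without the 3 arrays high in macrophage markers and -0.39 without untreated replicate 3, the highest array. In tumour cells the Pdgfa and Pdgfb differences were 0.07 ± 0.13 and -0.10 ± 0.14. Of the 6 PDGF ligand and receptor genes, all but Pdgfd were higher, with a median of 0.75. The 10 VEGF genes had 4 higher and a median of -0.10, and the 13 FGF genes 8 higher and a median of 0.07. Vegfc, the main VEGFR3 ligand, had a difference of -0.61 ± 0.30, and Pgf, a ligand of VEGFR1, 0.99 ± 0.62. Without the 3 arrays high in macrophage markers these were -0.95 and 0.50.

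**Figure D4:**
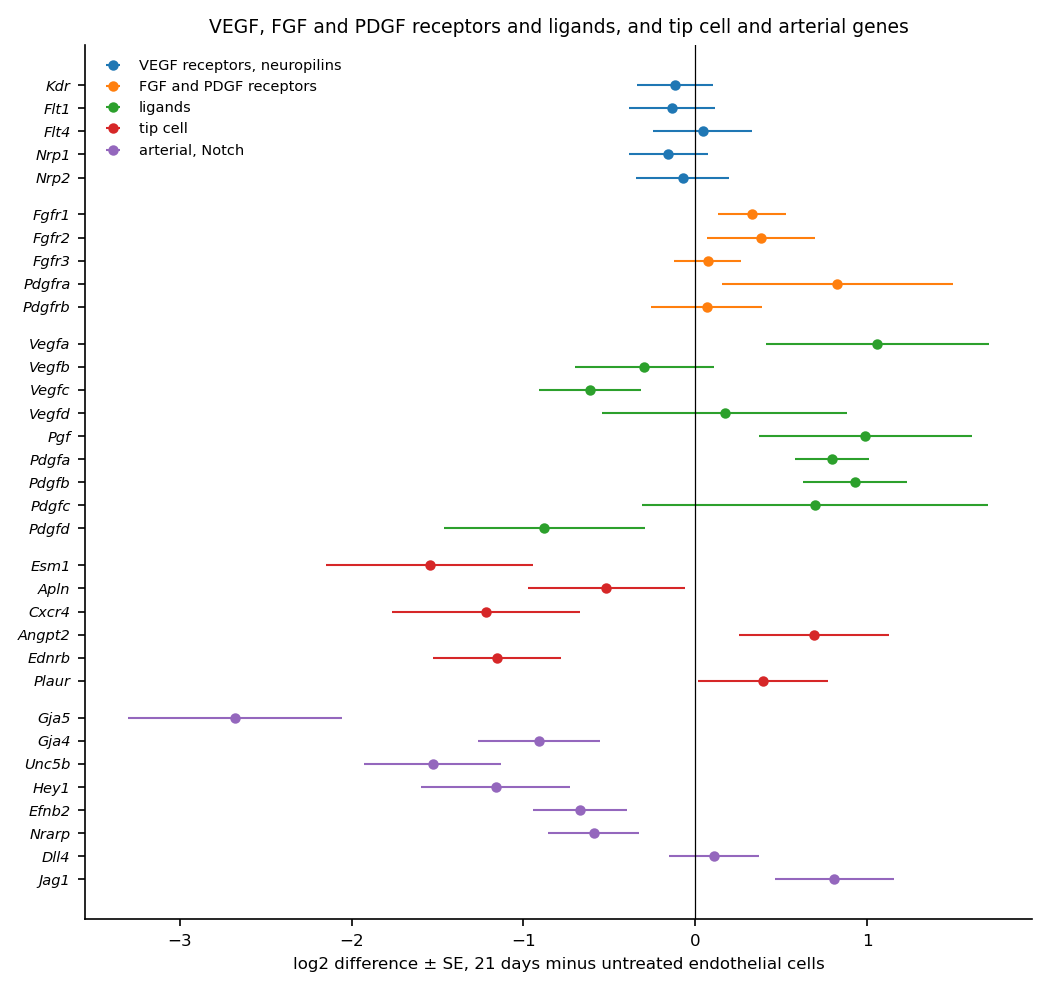
Long-term minus untreated difference (log2) with the standard error of the limma fit for receptor, ligand and vessel genes in endothelial cells. Kdr, Flt1 and Flt4 lie within their standard error of 0, while Pdgfa and Pdgfb lie above 0 and Gja5 and Unc5b below it.

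Several arterial and Notch genes were lower after long-term treatment, while the sign of the list's median depended on the arrays used. Gja5 (connexin 40), an arterial gap junction protein, was at 7.42, 8.23 and 8.44 in untreated and at 6.28, 6.35, 4.61, 4.91 and 4.60 in long-term arrays. The groups did not overlap, and the difference of -2.68 ± 0.62 (6.4-fold lower) was the largest named on the lower side, with a limma adjusted p of 0.727, or 0.0196 with 23 arrays. The error with 23 arrays was 0.46. It pools in tumour cells, where Gja5 had an SD of 0.14 (untreated) and 0.18 (long-term), against 0.54 and 0.89 in endothelial cells. Unc5b, a netrin receptor of tip cells and arteries, was at 8.48, 8.51 and 9.35 in untreated and at 6.44, 7.25, 6.98, 7.53 and 8.06 in long-term arrays (-1.53 ± 0.40, limma adjusted p = 0.943). Hey1, a transcriptional repressor induced by Notch, had a difference of -1.16 ± 0.43. Efnb2 (ephrin-B2), the arterial ligand of EphB4, was at 10.02, 10.39 and 10.62 in untreated and 9.02, 9.93, 9.76, 9.85 and 9.78 in long-term arrays (-0.67 ± 0.27). Gja4 (connexin 37), taken after its values were seen, had -0.91 ± 0.36. Of the Notch ligand genes, Dll4 had a difference of 0.11 ± 0.26 (95% interval -0.48 to 0.69), and Jag1, also taken after its values were seen, had 0.81 ± 0.35. Over 23 members 13 were higher, with a median of 0.02. An unadjusted p under 0.05 was reached by 6 on the lower and 1 on the higher side, against 1.59% and 2.58% of all genes. The list mean over arrays was 7.69 in untreated and 7.41 in long-term cells. Without the 3 arrays high in macrophage markers 14 members were lower and the median was -0.04.

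Tip cell and sprouting genes tended to the lower side. Of 30 members 20 were lower, with a median of -0.17. At an unadjusted p under 0.05 were 4 on the lower and 1 on the higher side, against 1.59% and 2.58% of all genes. The list mean was 9.25 to 9.79 in untreated and 9.05 to 9.54 in long-term arrays, which overlapped. Cxcr4, the chemokine receptor of tip cells, was at 10.04, 9.85 and 10.60 in untreated and 8.95, 9.07, 8.40, 8.85 and 9.47 in long-term arrays, without overlap (-1.22 ± 0.55). Esm1 (endocan), a VEGF-induced tip cell product, was at 5.75, 6.06 and 7.85 in untreated and 5.60, 4.16, 4.13, 4.62 and 6.52 in long-term arrays. The difference was -1.55 ± 0.60, and it was -0.90 without untreated replicate 3, the highest array. Ednrb, the endothelin B receptor, was at 9.48, 10.06 and 10.62 in untreated and 8.48 to 9.13 in long-term arrays (-1.15 ± 0.37). Apln (apelin) had -0.52 ± 0.46, and Angpt2, the Tie2 antagonist stored in endothelial cells, lay on the other side at 0.69 ± 0.44.

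Venous and capillary genes lay on the higher side for most members on all arrays, to be read against 53.2% of all genes. Without the arrays high in macrophage markers, 6 of 10 venous and 9 of 15 capillary genes were higher. That was 60% of each list, close to the 56.5% of all genes, and the medians were 0.15 and 0.03. Untreated replicate 1, among the arrays left out, had the lowest untreated mean of both lists, 7.80 and 6.99. On all arrays, 8 of 10 venous genes were higher, with a median of 0.19. Vwf (von Willebrand factor), a clotting protein stored in endothelial granules, was at 6.73, 7.88 and 7.70 in untreated and at 8.94, 8.97, 8.0, 8.23 and 8.33 in long-term arrays (1.06 ± 0.43), without overlap. Nr2f2 (COUP-TFII), which specifies venous identity, had a difference of 0.56 ± 0.29. The 15 capillary genes had 10 higher and a median of 0.13, and the smallest p belonged to Sgk1, a serum- and glucocorticoid-induced kinase, at 0.61 ± 0.12. Cd36, a fatty acid receptor, had the largest difference of that list, 1.08 ± 0.60, which was 0.38 without untreated replicate 1. The 29 endothelial identity and junction genes had 10 higher and a median of -0.09, with Egfl7, a secreted vascular protein, at 0.50 ± 0.20, or 0.27 without untreated replicate 1, its lowest array.

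Tgm2, Mt2 and Ccn4 were among the genes with the smallest p. Tgm2, a transglutaminase that crosslinks matrix proteins, was at 8.74, 8.73 and 8.85 in untreated and 9.52, 9.26, 9.48, 9.59 and 9.61 in long-term arrays (0.72 ± 0.10; limma adjusted p = 0.131, or 0.0881 with 23 arrays). Mt2, a metallothionein that binds zinc and copper, was at 7.97, 7.98 and 7.92 in untreated and 9.04, 10.75, 9.68, 10.62 and 9.78 in long-term arrays. Its difference of 2.02 ± 0.35 (4.04-fold; limma adjusted p = 0.33, or 0.0441 with 23 arrays) was larger than the whole range of either group. Ccn4 (WISP1), a matricellular protein and Wnt target, was at 6.88, 6.71 and 6.57 in untreated and 5.41, 5.73, 5.80, 5.68 and 5.85 in long-term arrays. The difference was -1.03 ± 0.14, with a limma adjusted p of 0.131, or 0.0363 with 23 arrays. Fzd6, a Wnt receptor, was at 8.09 to 8.31 in untreated and 7.47 to 7.92 in long-term arrays (-0.55 ± 0.12), and Apcdd1, a Wnt antagonist, had 0.54 ± 0.16. The 21 Wnt genes as a list had 10 higher and a median of -0.02. Tnfrsf11b (osteoprotegerin), a decoy receptor for RANKL, was at 5.90, 7.26 and 7.29 in untreated and 5.64, 5.66, 5.79, 5.79 and 5.40 in long-term arrays (-1.16 ± 0.28). Its untreated replicate 1, an array high in macrophage markers, was the low one of that group, and without it the difference was -1.62 ± 0.14 with a limma adjusted p of 0.0159.

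Inflammatory and acute phase genes were on the higher side for 17 of 23 members, with a median of 0.39, which was 0.20 without the 3 arrays high in macrophage markers. The list mean was 5.32 to 5.50 in untreated and 5.59 to 6.06 in long-term arrays. Groups without overlap were found for 5 members, all higher, against 2.14% of all genes on that side. Nfkbia, the inhibitor that NF-kappaB induces, was at 8.45, 9.16 and 8.75 in untreated and 9.85, 9.75, 9.55, 10.002 and 9.42 in long-term arrays (0.93 ± 0.19; limma adjusted p = 0.585, or 0.0337 with 23 arrays). Serpina3n, an acute phase protease inhibitor, was at 4.83, 6.72 and 5.79 in untreated and 7.77, 7.88, 6.75, 7.65 and 7.25 in long-term arrays. The difference was 1.68 ± 0.40, with a limma adjusted p of 0.727, or 0.0337 with 23 arrays, and untreated replicate 2 and long-term replicate 3 differed by little.

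Other lists leaned to the higher side with few members resolved. Of 18 YAP and serum response factor targets 15 were higher, with a median of 0.14 and list means of 7.10 to 7.19 in untreated and 7.31 to 7.61 in long-term arrays. Ccn1 (CYR61), a matricellular protein, was at 8.66, 8.31 and 9.12 in untreated and 9.27 to 9.94 in long-term arrays (0.79 ± 0.21), and Ccn2 (CTGF) had 0.84 ± 0.30. Of 21 amino acid stress and serine synthesis genes 18 were higher, with a median of 0.28. Slc7a5, a transporter of large neutral amino acids, was at 7.71, 7.50 and 7.93 in untreated and 8.89, 8.65, 8.38, 8.63 and 8.14 in long-term arrays (0.82 ± 0.18). Of 16 mitochondrial and autophagy clearance genes, Bnip3 among them, 13 were higher, with a median of 0.25. Sqstm1 (p62), an autophagy receptor, had 0.66 ± 0.23, and Atg3, an enzyme of autophagosome formation that is not on the list, 0.79 ± 0.16 (limma adjusted p = 0.585, or 0.0379 with 23 arrays). Oxidative phosphorylation genes (32 of 47 higher) and genes of the TCA cycle and fatty acid oxidation (20 of 32) had medians of 0.12 each, but without the 3 arrays high in macrophage markers these were -0.02 (21 of 47 higher) and -0.0032 (16 of 32). Without these 3 arrays the amino acid stress genes had 14 of 21 higher and a median of 0.18. The mitochondrial and autophagy clearance genes then had 10 of 16 higher and a median of 0.22. The YAP and serum response factor targets stayed at 15 of 18, with a median of 0.27. Over all genes 53.2% were higher on all arrays and 56.5% without these 3.

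**Figure D5:**
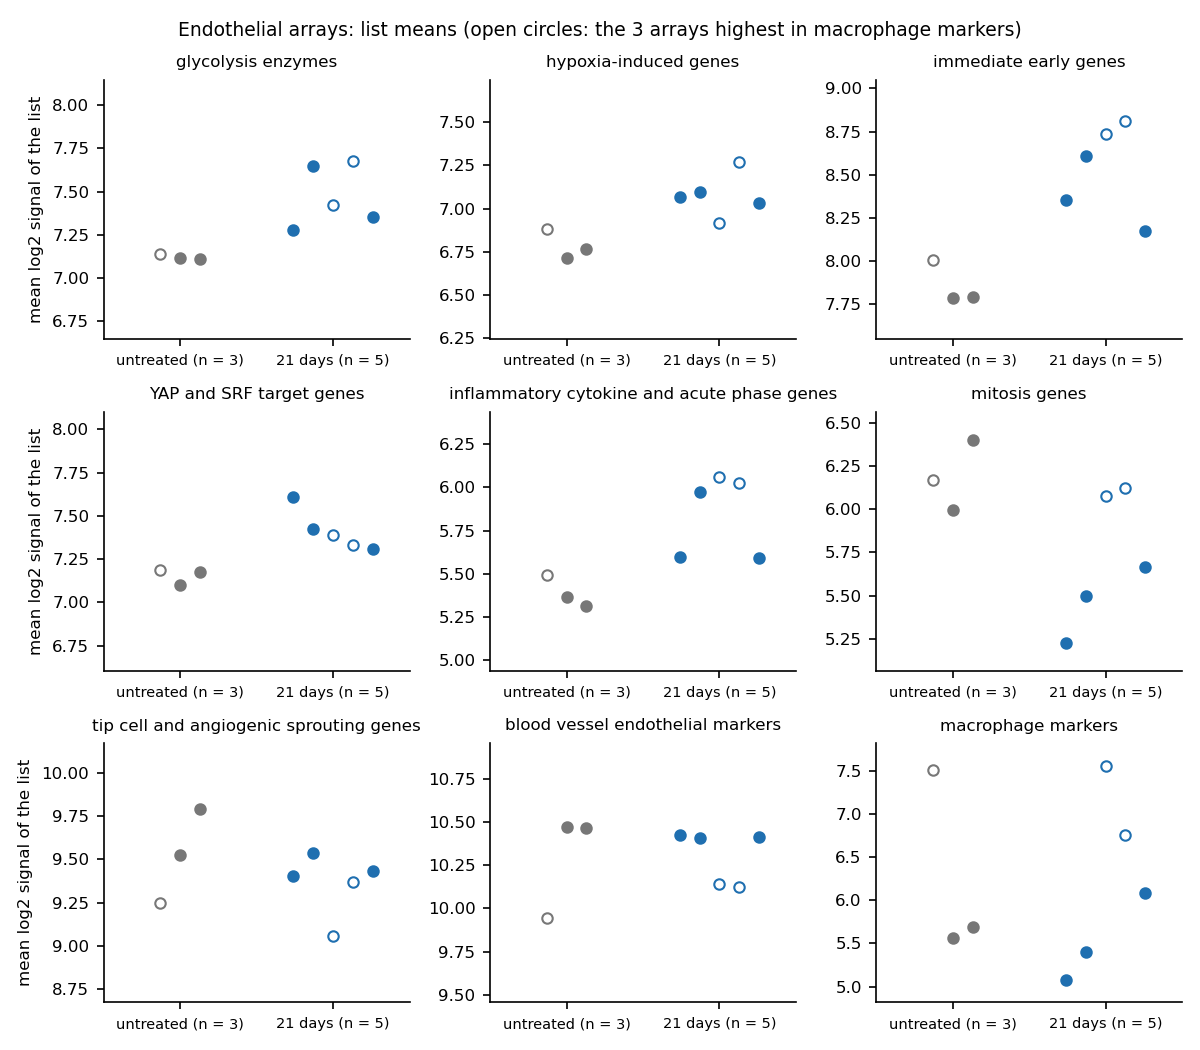
Mean log2 level of 9 gene lists (y axis) on each of the 8 untreated and 21-day endothelial arrays, by group on the x axis. Open circles are the 3 arrays highest in macrophage markers. For glycolysis enzymes and immediate early genes every 21-day array lies above every untreated array, and for mitosis genes the groups overlap.

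The 7-day endothelial arrays can be set beside these values, but the groups are not a time course. Controls were taken at the size of the 21-day tumours, so the untreated arrays are not a starting point. Treatment and any difference in tumour size or age cannot be told apart between 7-day and untreated arrays. The comparisons with 7-day arrays also share the untreated or the long-term arrays with the main one, so the values are given side by side only. No gene passed the adjusted limma threshold for long-term against short-term cells (0%), and 1875 had an unadjusted limma p under 0.05 (9.4%). Glycolysis enzymes averaged 7.08 to 7.20 after 7 days, beside 7.11 to 7.14 in untreated and 7.28 to 7.68 after 21 days. Pgk1 was at 9.18, 9.20 and 9.15 after 7 days, which is 0.91 ± 0.17 below the long-term mean and close to the lowest untreated value. Bnip3 was at 5.92, 5.44 and 6.13, overlapping the untreated range, and on average 1.13 ± 0.25 below the long-term mean. Immediate early genes averaged 8.33 to 8.50 after 7 days, inside the long-term range of 8.18 to 8.81 and above the untreated range. Fos was at 9.70, 9.01 and 9.42, above all untreated arrays and below all but 1 long-term array. Mitosis genes averaged 5.06 to 5.43 after 7 days, with every array below every untreated one, and 32 of 33 members were higher in long-term than in short-term arrays, with a median of 0.48. Markers of other cell types also differed between these arrays. Macrophage markers averaged 4.76 to 5.11 after 7 days against 5.08 to 7.55 after 21 days, and 21 of 22 were higher in long-term arrays (median 1.18, 5 without overlap). Fibroblast markers (3 of 13 higher) and pericyte and smooth muscle markers (3 of 13) ran the other way, both with a median of -0.31, and the part of these cells in the comparison with 7 days was not tested. DNA replication genes averaged 5.83 to 5.96 after 7 days, below the 6.06 to 6.46 of untreated and the 6.09 to 6.71 of long-term arrays. Gja5 spread from 5.13 to 7.80 after 7 days, and Esm1 was at 4.37, 4.12 and 4.38, below every untreated array. Fgfr1 was at 7.24, 8.12 and 7.48 after 7 days, 0.95 ± 0.20 below the long-term mean.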

How the data were processed

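Expression was measured on 23 Affymetrix arrays, 1 per FAC-sorted sample, amplified with NuGEN kits per the labels. The deposited table holds log2 values, which the authors made with RMA in the oligo package, per the submitters' processing notes (versions not given in the sources consulted). RMA brings all arrays to 1 distribution, so a difference is relative to the other transcripts of an array. Of 35556 transcript clusters 21789 named 1 gene, 1621 several, and 12146 were not listed. For the 999 genes with several clusters the brightest on average was taken, which left 19938 genes without a filter on dim ones. Of the 21789 gene identifiers 21698 were in the mouse RefSeq table (GRCm38.p6), and no symbol was updated.

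The main test was limma 3.58.1 in R 4.3.3 on the 11 endothelial arrays, two-sided, Benjamini-Hochberg adjusted over all genes, with a threshold of 0.05. The difference between cell types was an interaction contrast over 23 arrays. Lists (41 functional and 14 marker lists, 923 of 999 symbols measured) were described by counts and medians, with no test. Members and lists were chosen with earlier results of these data known. Named genes were, per direction, the 12 with the smallest p and the 6 with the largest difference among those with unadjusted p under 0.01 and no overlap. Added were the 3 members with the smallest p of each functional list, a panel of 23 genes, and per direction the 6 with the smallest p for the difference between cell types. Predicted genes, small RNAs and olfactory or vomeronasal receptors were left out of the ranked parts.

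Alternatives were other sample sets, 2 filters on dim genes, prior variances, array weights, the mean of clusters, quantile normalization, median centring, a replicate block, macrophage or epithelial covariates and single arrays left out. The fit without the 3 arrays highest in macrophage markers was added after seeing the data.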

Additional observations from a re-analysis of the deposited data

Results flagged for a closer look

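Single long-term arrays stood apart from the other 4 of their group for 8 genes and 2 list means of 210 items looked at; chance alone flags about 1 in 20 groups. For Angpt2, replicate 3 was at 6.96, below the next value of 7.96. For Itgb3, an integrin subunit of angiogenic endothelium, the same array was at 6.51 against 8.31 or more. For Pdgfrb that array was the highest, at 7.29 against 6.33 or less. Long-term replicate 3 was also the array with the highest macrophage marker mean of that group, 7.55, and the part of that in the 3 values was not tested. For Efnb2, replicate 1 was at 9.02 against 9.76 or more, and for Cyp1b1, a cytochrome P450 enzyme, it was at 3.64 against 4.67 or more. For Fgfr2, replicate 4 was at 4.66 against 3.39 or less, and for Ptgfr, the prostaglandin F receptor gene, it was at 3.73 against 3.90 or more. For Slc20a1, a phosphate transporter gene, replicate 5 was at 9.28 against 8.88 or less. The mean of the TCA cycle and fatty acid oxidation genes was 7.19 in replicate 2 against 7.55 or more, and the mean of the DNA replication genes was 6.71 in replicate 4 against 6.26 or less.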

How the results depend on the processing

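With no gene called, limma gave 34 calls with 1 spread over all 23 arrays, 2 with a trend in the prior variance (Dnase1l3 and the predicted gene Gm10767) and 0 to 1 when single arrays were left out (Tnfrsf11b without untreated endothelial replicate 1). The other settings gave 0. The 833 genes at an unadjusted p under 0.05 became 1767 with the 23-array spread, 462 among genes above the 50th percentile and 680 to 964 with single arrays left out. For the difference between cell types, 2 genes were called with array weights (Sez6l2 and Snora52) and 0 to 5 with single arrays left out. The 5, among them Sez6l2, Klhl23 and Tnfrsf11b, came without untreated endothelial replicate 1. Leaving out untreated endothelial replicate 2 or 3, untreated tumour replicate 2 or 3, or long-term tumour replicate 5 gave 1 each. For long-term against short-term endothelial cells, 262 genes were called with the 23-array spread and 0 to 5 with single arrays left out, 5 of them without short-term endothelial replicate 2. The replicate block called 0 genes in each comparison and left 765 at an unadjusted p under 0.05. Correlations of the deviations of same-numbered arrays, within endothelial cells, within tumour cells and between the cell types, ran from -0.15 to 0.11. Such values show no pairing but cannot exclude it in groups this small. The labels do not say whether equal numbers mark shared mice or tumours. Of the 155 named genes 145 kept their direction under every setting. Many of them were picked by p or difference in these same arrays, so a kept direction is in part fixed by that choice. The signs that turned belonged to Adamts9 (0.092) and Nlrc5 (0.068) with the mean of clusters, Pdgfrb (-0.0085) and Tek (0.077) with the epithelial covariate, and Flt4 with array weights (-0.037), renewed quantile normalization (-0.012), the replicate block (-0.0039) and without the 3 arrays high in macrophage markers (-0.083), where Pdgfrb was at -0.47. With single arrays left out, the difference ran from -0.063 to 0.27 for Dll4, -0.03 to 0.17 for Fgfr3, -0.28 to 0.014 for Flt1, -0.28 to 0.33 for Flt4, -0.31 to 0.045 for Kdr, -0.17 to 0.24 for Pdgfrb, -0.045 to 0.072 for Ptgfr and -0.35 to 0.22 for Tek. Medians lay between 0.28 and 0.49 for glycolysis enzymes, 0.58 and 0.77 for immediate early genes, 0.11 and 0.24 for hypoxia-induced genes and -0.69 and -0.39 for mitosis genes over all settings. Of the 41 functional lists 17 kept the sign of their median and 24 did not. Among the latter were arterial and Notch genes (-0.29 to 0.14), oxidative phosphorylation (-0.02 to 0.18), TCA cycle and fatty acid oxidation (-0.0032 to 0.18), ERK feedback (-0.16 to 0.14), DNA replication (-0.07 to 0.14) and endothelial identity genes (-0.23 to 0.05). The amino acid stress median ran from 0.07 to 0.33. The cause of these changes was not tested, beyond fewer genes under the filter. The spread among endothelial arrays, their small number, unequal macrophage signal and size-matched controls all limit these data.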

Other observations

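Small nucleolar RNAs, left out of the ranked genes above and looked at after their values were seen, held some of the largest differences. Most of them guide the chemical modification and processing of ribosomal RNA. Snora73b was at 4.52, 5.67 and 5.62 in untreated and at 7.46, 8.91, 7.17, 7.29 and 7.66 in long-term endothelial arrays. The groups did not overlap, and the difference was 2.43 ± 0.42, with a limma adjusted p of 0.33, or 0.00548 with the spread over 23 arrays. Snora73a and Snora52 differed by 2.29 ± 0.45 and 2.09 ± 0.47. Snora73a and Snora73b are near-identical copies, so their probes may read the same transcripts. Of 55 measured small nucleolar and Cajal body RNAs 36 were higher, with a median of 0.23. Among them 5 had groups without overlap, all higher, against 2.14% of all genes on that side.

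Among the genes whose effect differed most between the cell types, all with a limma adjusted p of 0.207 or more, Sez6l2 stood on the lower side. It was at 6.23, 7.31 and 7.26 in untreated and at 5.21, 4.84, 4.63, 4.99 and 5.39 in long-term endothelial arrays, and its difference in endothelial minus that in tumour cells was -1.76 ± 0.36 log2 units. Tcf3, a basic helix-loop-helix transcription factor gene, was on the higher side, with a difference of 0.69 ± 0.19 in endothelial and -0.38 ± 0.09 in tumour cells. For Mmp12, a macrophage elastase gene, the endothelial difference was -0.04 ± 0.10 and the tumour cell difference -1.24 ± 0.19. Its mean was only 3.57 in untreated endothelial cells, against 5.10 in untreated and 3.86 in long-term tumour cells. A like decrease could hardly be seen at so low an endothelial level.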
